A study of Lens culinaris with 18 samples.

Results

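A set of 66 lentil genes, of 58243 listed, gave RNA in seeds of the natural line M11 and almost none in seeds of the cultivars Redmoon and Gold. The genes were chosen by their read counts, as those with at least 1 CPM (the counts-per-million scale, over the total of the library) in all 6 M11 libraries and a pooled CPM of at most 0.1 in each of the 4 cultivar groups. A pooled CPM is the summed count of the 3 libraries of a group over their summed totals. The low level in the cultivars is therefore the rule itself and not a finding, and it was not tested. What the rule left free was the level in M11 above 1 CPM, the difference between M11 tissues that both reach it, and the place in the genome. Genes with RNA in only 1 M11 tissue were left out by the rule, which limits how far the tissues can differ.

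M11 is a natural accession that carries a mutated LcLTP3b, a gene for the lipid transfer protein allergen Len c3, while CDC Redmoon and CDC Gold are cultivated lines. RNA came from the embryo, and from the seed coat with the endosperm attached, of mature green seeds. The 6 groups were M11 embryo, M11 seed coat with endosperm, and the same tissues of Redmoon and of Gold, each with 3 libraries. No source says whether these came from separate plants, so a p-value here measures only the spread between libraries. Since M11 is 1 line, a gene found in M11 only is a feature of this line set beside 2 cultivars.

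Lines of a crop differ in which genes they carry and which they transcribe, and a gene read in 1 line only can reflect either kind of variation. Counts of RNA cannot tell apart a gene that is missing from a line, a gene that is present but silent, and a gene whose sequence differs so much that its reads were not aligned. The tables pair no identifier with a gene name or a function, so the genes are given by identifier and nothing is said of their roles. In an identifier such as Lcu.2RBY.2g056820 the digit before the letter g is the chromosome, and the number after it gives the order of genes along it.

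Total counts were 19158437 to 20115328 in M11 embryos and 5907695 to 6691125 in M11 seed coats, so 1 CPM stood for about 20.1 counts in the deepest embryo library and 5.91 counts in the shallowest seed coat library. The cultivar libraries held from 3270275 to 24309401 counts. The tissue labels were checked on the 16 vicilin genes, which encode a storage protein of the embryo. These took 139855 ± 1789 CPM in M11 embryos and 2102 ± 135 CPM in M11 seed coats (SD, n = 3 each). The means were 341535 and 353805 CPM in Redmoon and Gold embryos, and 7470 and 1807 CPM in their seed coats. A larger vicilin share leaves less of the library total to other genes. By library totals, a limit of 0.1 CPM was therefore not equally strict in all groups. The cultivar labels did not match between the tissues. Genes that separate the cultivars in both tissues, with at least 2 CPM in every library of 1 of them and at most 0.1 in every library of the other, changed sides between the tissues in 116 cases and kept to the same cultivar in 0 cases. Redmoon and Gold may therefore be exchanged in 1 of the tissues. The choice of the 66 genes does not rest on these labels, because the limit of 0.1 applied to all 4 cultivar groups alike, but every value given for Redmoon or Gold below is that of the libraries so labelled.

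Of 14244 genes with at least 1 CPM in all M11 libraries, the 66 made up 0.463%. The line between them and other genes was not a gap. Beyond the 66, a further 16 genes had their highest cultivar group above 0.1 and up to 0.2 CPM, 35 up to 0.5 and 48 up to 1 CPM. The genes just inside the cultivar limit were Lcu.2RBY.2g061190 and Lcu.2RBY.7g030680, each with 3 counts or 0.0999 CPM in Redmoon seed coats. Just outside it were Lcu.2RBY.2g044810, with 0.106 CPM in Gold embryos, and Lcu.2RBY.6g026930, with 0.109 CPM in Redmoon embryos. Lcu.2RBY.6g026930 was well expressed in M11, at 55.5 CPM in embryos and 14.2 in seed coats, and missed the limit by its 6 counts in Redmoon embryos. Lcu.2RBY.7g030680 had the most cultivar counts of the 66 genes, 11 in all, and was low in M11 too, at 1.79, 2.11 and 1.98 CPM in embryos and 3.05, 3.46 and 3.89 in seed coats. At the M11 limit, Lcu.2RBY.5g051090 and Lcu.2RBY.3g023360 were just inside, with 1.02 and 1.04 CPM in their lowest library. Lcu.2RBY.2g041450 and Lcu.2RBY.2g064000 were just outside, with 0.945 and 0.943 CPM in theirs. Lcu.2RBY.2g041450 had 0 counts in all 12 cultivar libraries.

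**Figure D1:**
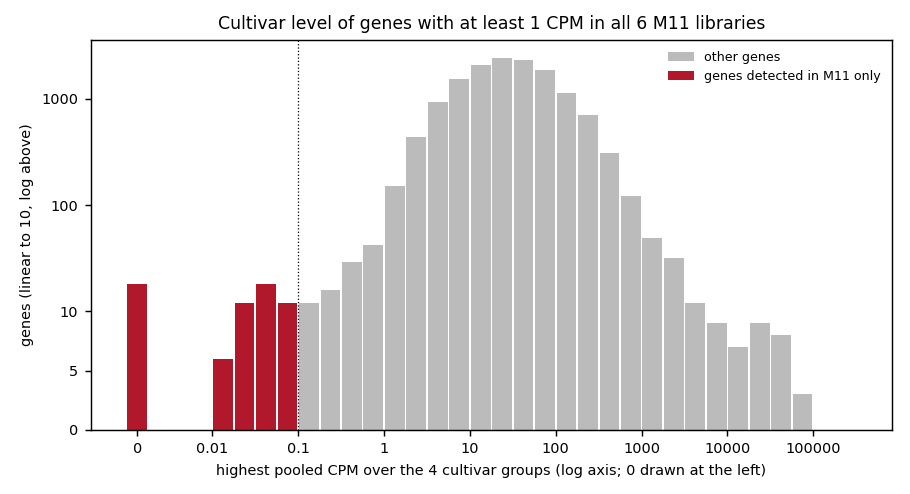
Histogram of the 14244 genes with at least 1 CPM in all 6 M11 libraries by their highest pooled CPM over the 4 cultivar groups (log axis, 0 at the left, number of genes linear to 10 and log above). The 66 genes chosen by the rule (red) lie at or left of the dotted line at 0.1 CPM, 18 of them at 0, and the other genes (grey) continue to the right of it without a gap.

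The label of these genes, detected only in M11, held strictly for 18 of them. These 18 had 0 counts in all 12 cultivar libraries, and the other 48 had from 1 to 11 counts over those libraries. Over all 66 genes the cultivar libraries held 163 counts, beside 40807 counts in the 6 M11 libraries. Of the 792 single values in the cultivars, 674 were 0, 84 were 1 and 34 were 2 or more, and the highest was 4. The sum over the 66 genes was 565 ± 11.1 CPM in M11 embryos, 0.738 ± 0.0997 in Redmoon embryos and 0.594 ± 0.284 in Gold embryos (SD, n = 3 each). For seed coat with endosperm the sums were 389 ± 6.17 CPM (M11), 0.865 ± 0.365 CPM (Redmoon) and 1.06 ± 0.108 CPM (Gold). The few cultivar counts were spread over all 12 libraries, with 3 to 27 counts each, and the lowest number was that of the shallowest one, Gold embryo replicate 3. All 3 counts of that library fell on Lcu.2RBY.3g044910, at 0.917 CPM, beside 1.64, 1.36 and 1.41 CPM in M11 embryos. Leaving this library out gave the same 66 genes. Where the limit of 0.1 CPM had to hold in each single cultivar library, 44 of the 66 genes met it. A gene with 1 to 3 counts over a cultivar group is within the limit that 0 counts allow.

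The 18 genes without a cultivar count were Lcu.2RBY.2g023780, Lcu.2RBY.2g023790, Lcu.2RBY.2g037710, Lcu.2RBY.2g038470, Lcu.2RBY.2g056820, Lcu.2RBY.2g065370, Lcu.2RBY.2g087620, Lcu.2RBY.3g002640, Lcu.2RBY.3g024890, Lcu.2RBY.4g020300, Lcu.2RBY.5g029430, Lcu.2RBY.5g035580, Lcu.2RBY.6g012900, Lcu.2RBY.6g040530, Lcu.2RBY.6g041290, Lcu.2RBY.7g016960, Lcu.2RBY.7g030340 and Lcu.2RBY.L015170. A count of 0 allows up to 3 counts over a group, or 0.0545 CPM in Redmoon and 0.0638 CPM in Gold embryos, and 0.0999 CPM in Redmoon and 0.0436 CPM in Gold seed coats (counting error only). Against this limit, and with the smaller of the bounds by library totals and by TMM-scaled totals (TMM is edgeR's scaling for library composition), the genes were at least 19.3-fold to 325-fold higher in M11 than in Redmoon embryos. Against Gold embryos the bounds ran from 11.02-fold to 185-fold. In seed coat with endosperm they ran from 15.4-fold to 168-fold against Redmoon and from 35.4-fold to 387-fold against Gold. The weakest bound in every comparison was that of Lcu.2RBY.7g016960, and the strongest in embryos was that of Lcu.2RBY.4g020300. Lcu.2RBY.2g056820 gave the strongest bound in seed coats. All 18 genes share 1 limit per cultivar group, so the order of the bounds is by construction that of their M11 levels.

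As a group these were weakly expressed genes. Averaged over both M11 tissues, their levels ran from 1.24 to 48.6 CPM with a median of 5.31, beside a median of 22.7 CPM for all 14244 genes expressed in M11. A single gene of the 66 lay above that median. At least 5 CPM was reached by 34 genes, at least 10 by 15 and at least 20 by 1. In both tissues separately, 7 genes had 10 CPM or more. The counts behind these values ran from 21 to 1519 per embryo library (median 100.5) and from 6 to 163 per seed coat library (median 27). The coefficient of variation over the 3 libraries had a median of 8.31% in embryos and 15.2% in seed coats, beside the 10.4% and 19.5% that counting error alone gives for the median gene. For the median gene the spread between the M11 libraries was thus not seen to exceed counting error, though an SD over 3 libraries is imprecise. Over all genes compared, replicates of both M11 tissues differed by more than counting error.

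**Figure D2:**
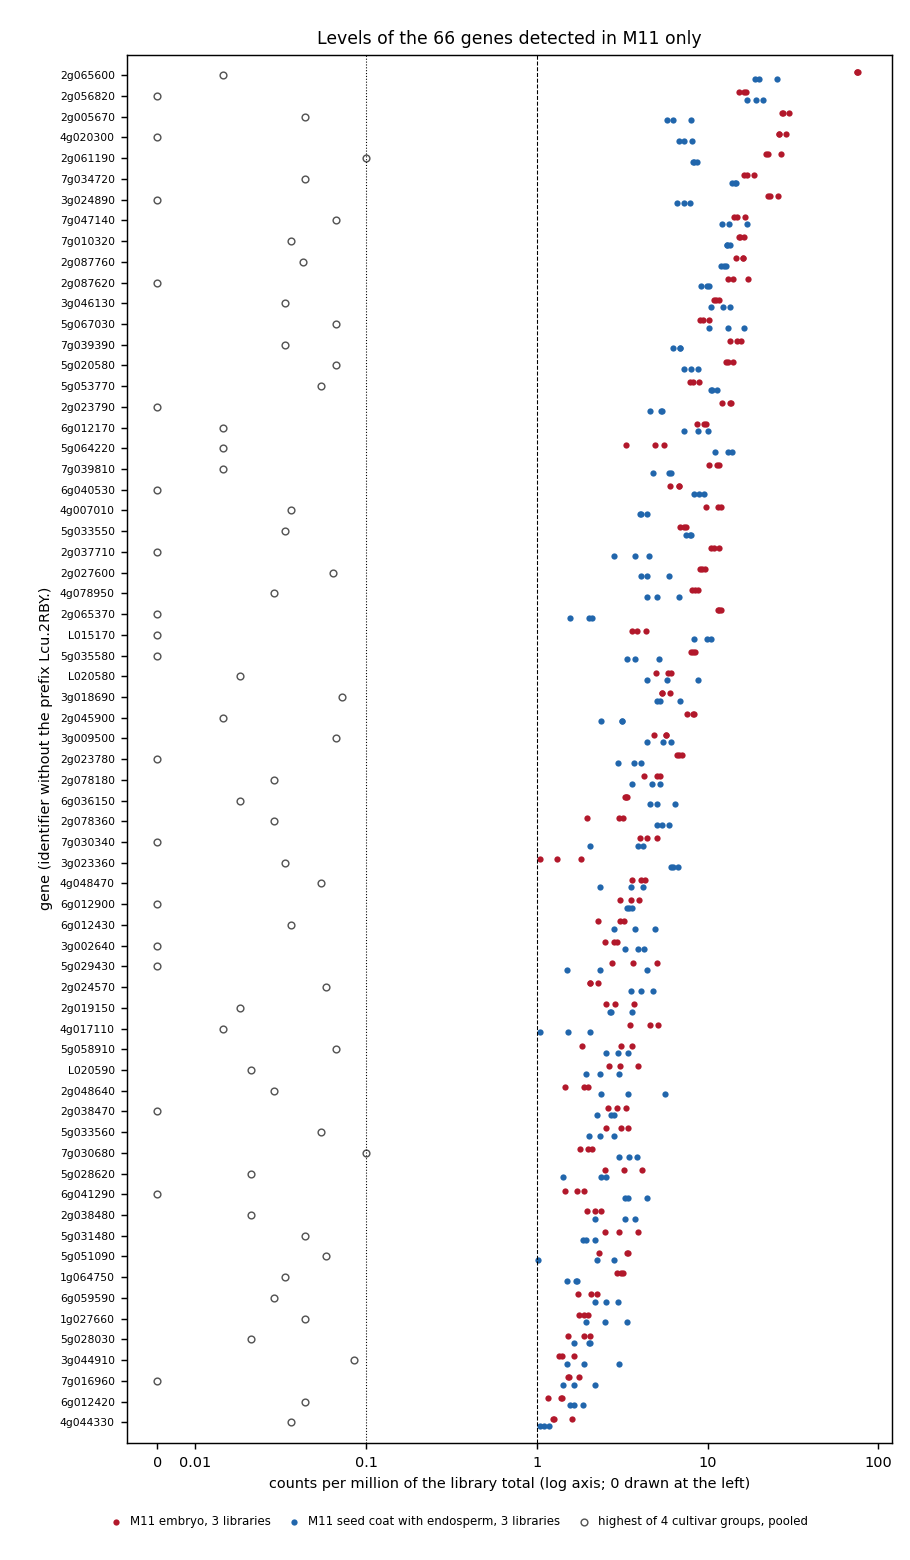
CPM of each of the 66 genes (log axis) in the 3 M11 embryo libraries (red) and the 3 M11 seed coat with endosperm libraries (blue), with the highest pooled CPM of the 4 cultivar groups as open circles (0 at the left). Dashed and dotted lines mark the limits of the rule at 1 and 0.1 CPM. Mean M11 levels run from 1.24 to 48.6 CPM. For 25 genes all embryo libraries lie above all seed coat libraries and for 16 they lie below, beside 33.9% and 51.3% of the genes expressed in M11.

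The most abundant gene was Lcu.2RBY.2g065600, with 75.5, 76.2 and 75.2 CPM in M11 embryos and 20.1, 25.6 and 19.0 CPM in M11 seed coats. It had 1 count in all cultivar libraries together, in Gold seed coats. The 2 tissues did not overlap, and no other of the 66 genes came near this embryo level. The next in order of mean level was Lcu.2RBY.2g056820, with 16.4, 15.3 and 16.8 CPM in embryos and 21.2, 19.2 and 17.0 in seed coats. Here the seed coat libraries were the higher ones in CPM, although narrowly. It was followed by Lcu.2RBY.2g005670, with 29.8, 27.8 and 27.2 CPM in embryos and 7.96, 5.82 and 6.28 in seed coats, and by Lcu.2RBY.4g020300, with 26.1, 26.3 and 28.7 in embryos and 7.28, 6.76 and 8.07 in seed coats. Both of these owed their rank to the embryo. Lcu.2RBY.2g061190 was the fifth, with 21.9, 22.5 and 26.8 CPM in embryos and 8.29, 8.65 and 8.22 in seed coats. Its seed coat libraries were nearly equal and lay below every embryo library. Lcu.2RBY.2g087620, a marker of this set along with Lcu.2RBY.2g056820, had 14.2, 17.2 and 13.2 CPM in embryos and 10.2, 9.12 and 9.86 in seed coats. Apart from the first gene, the levels at the top formed a continuous order, with means of 15.8 and 15.6 CPM for the genes next after the fifth.

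The M11 tissues were compared by the quasi-likelihood test of edgeR over the 6 M11 libraries and 19151 genes, all 66 among them. In embryos, 37 of the 66 genes (56.1%) were higher than in seed coat with endosperm and 7 (10.6%) were lower (Benjamini-Hochberg adjusted p under 0.05 over all genes tested), and 22 were not called. Of all genes tested, 43.2% were higher and 42.6% were lower. Among the genes with at least 1 CPM in all M11 libraries the shares were 45.9% and 38.3%, and among the 10355 of those in the same range of mean level as the 66 genes they were 44.5% and 36.6%. The genes lower in embryos were thus a smaller share of the 66 than of each of these backgrounds, and the genes higher in embryos a larger share. The median log2 fold change, embryo minus seed coat, was 0.55 for the 66 genes, with quartiles of 0.02 and 1.26. It was 0.02 for all genes tested and 0.12 for those with at least 1 CPM in all M11 libraries. For the 10355 of those in the same range of mean level it was 0.13.

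This split depended on the scaling. With library totals in place of TMM, the median log2 fold change of all genes shifted by -0.40, and 25 of the 66 genes were higher and 13 lower, beside 33.2% and 52.7% of all genes. The calls were thus 84.1% higher with TMM and 65.8% with library totals. The median of the 66 genes lay 0.53 above that of all genes under both scalings. This gap could not have changed, because the scaling shifts every gene by nearly the same amount. For 11 genes the sign of the log2 fold change turned, among them 1 that was called higher with TMM, Lcu.2RBY.3g046130 (0.30 with TMM, -0.10 with library totals). No gene was called in opposite directions, and the 25 and 7 genes called higher and lower under both are the firmer part of the list. In CPM by library totals, all embryo libraries lay above all seed coat libraries for 25 genes and below them for 16, beside 33.9% and 51.3% of the genes expressed in M11. Without M11 embryo replicate 2 the number of lower genes was 4. The vicilin genes stood in M11 seed coats at 1.51% of their embryo level, and the lowest such share among the 66 genes was 16.1%. The rule asked for at least 1 CPM in every M11 seed coat library. At the embryo levels of these genes, a share as low as that of vicilin would mostly have failed it. The comparison therefore says nothing on embryo RNA in the seed coat values, and that part was not tested.

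**Figure D3:**
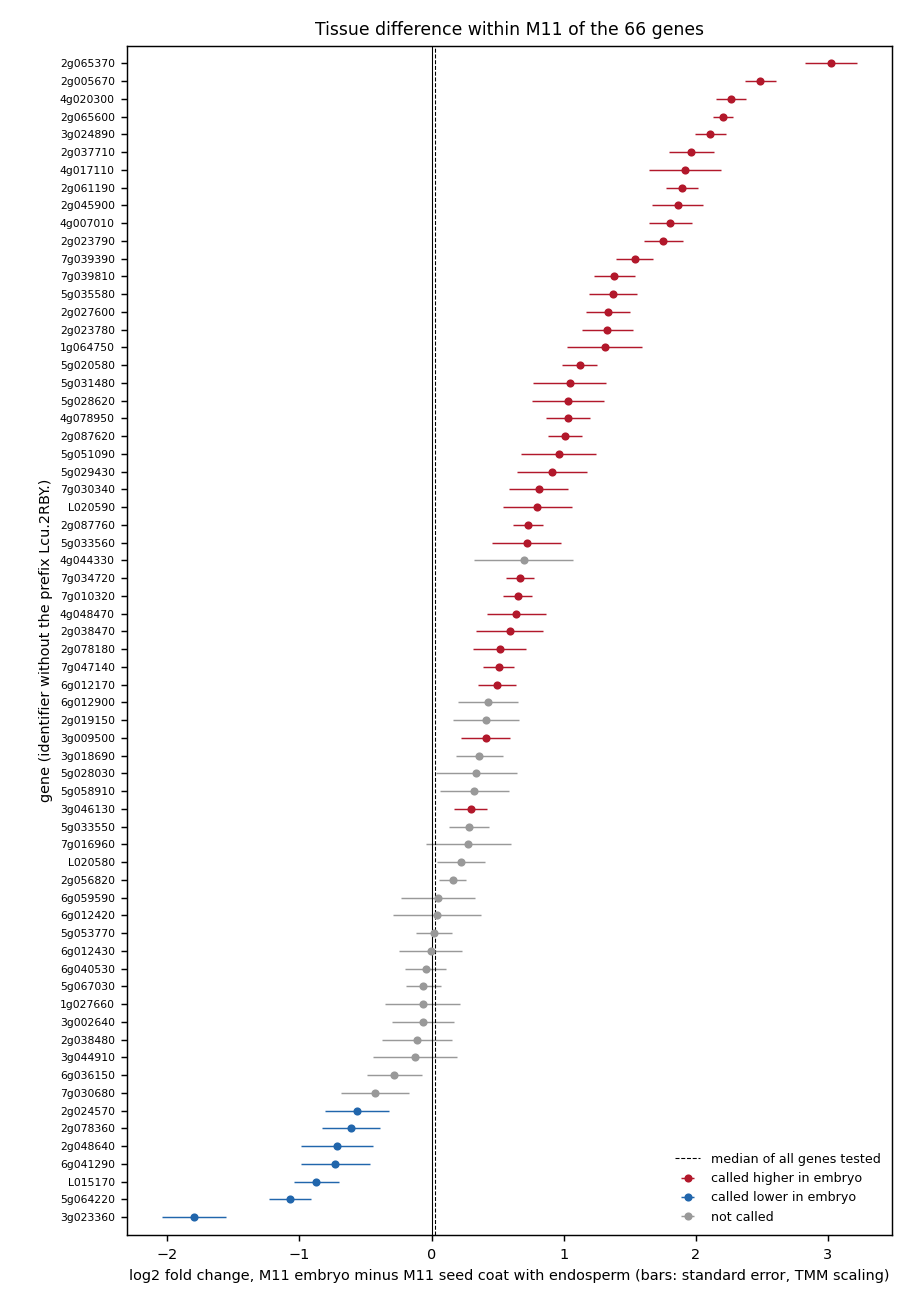
Log2 fold change of each of the 66 genes between M11 embryo and M11 seed coat with endosperm (x axis, edgeR with TMM scaling, bars are standard errors). Genes called higher in embryo are red (37), called lower blue (7) and not called grey (22), and the dashed line is the median of all 19151 genes tested, 0.02. With library totals in place of TMM, 25 genes are higher and 13 lower.

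The largest difference in favour of the embryo was that of Lcu.2RBY.2g065370, with 11.6, 12.1 and 11.7 CPM in M11 embryos and 2.03, 1.57 and 2.09 CPM in M11 seed coats. This is a log2 fold change of 3.03 with a standard error of 0.20 (edgeR adjusted p = 8.83e-23). The seed coat values rest on 10 to 14 counts per library. Among the abundant genes, Lcu.2RBY.2g005670 had a log2 fold change of 2.49 (standard error 0.12, edgeR adjusted p = 7.9e-30), Lcu.2RBY.4g020300 one of 2.27 (standard error 0.11, edgeR adjusted p = 3e-28) and Lcu.2RBY.2g065600 one of 2.21 (standard error 0.07, edgeR adjusted p = 2.81e-38). In these 4 genes every embryo library was above every seed coat library in CPM by library totals, which the choice of named genes required. This held for 33.9% of the genes expressed in M11. Of the 37 genes higher in embryos, 22 had a log2 fold change of 1 or more, and the smallest was 0.30. The share of all genes at this cut was not computed. The upper quartile of the log2 fold change was 1.11 over all genes tested. It was 0.98 over those with at least 1 CPM in all M11 libraries, so many other genes reach the cut too.

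The largest difference in favour of seed coat with endosperm was that of Lcu.2RBY.3g023360, with 1.04, 1.31 and 1.83 CPM in M11 embryos and 6.09, 6.29 and 6.73 CPM in M11 seed coats. This is a log2 fold change of -1.80 with a standard error of 0.24 (edgeR adjusted p = 6.11e-10). Lcu.2RBY.5g064220 had 3.33, 5.53 and 4.91 CPM in embryos and 11, 13.8 and 13.2 in seed coats, with a log2 fold change of -1.07 (edgeR adjusted p = 1.08e-08). Relative to their means, the embryo values of both genes varied more than their seed coat values, yet the tissues did not overlap. Lcu.2RBY.L015170, which has no place on a chromosome, had 3.63, 3.87 and 4.38 CPM in embryos and 10.5, 9.90 and 8.37 in seed coats (log2 fold change -0.87, edgeR adjusted p = 4.03e-06). Lcu.2RBY.6g041290 had 1.89, 1.46 and 1.72 CPM in embryos and 4.40, 3.30 and 3.44 in seed coats (log2 fold change -0.73, edgeR adjusted p = 0.00921), and it was not called without M11 seed coat with endosperm replicate 1, with a log2 fold change of -0.60 (edgeR adjusted p = 0.0644). The other 3 lower genes, Lcu.2RBY.2g048640, Lcu.2RBY.2g078360 and Lcu.2RBY.2g024570, had log2 fold changes of -0.71, -0.61 and -0.57. For all 7 lower genes the embryo libraries lay below the seed coat libraries in CPM by library totals. The same held for 51.3% of the genes expressed in M11, so it adds little to the calls. For the 4 lower genes with the largest difference, the choice of named genes required it.

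The 2 markers of the set differed in this respect. Lcu.2RBY.2g087620 was higher in embryos, with a log2 fold change of 1.01 (standard error 0.13, edgeR adjusted p = 9.52e-11). Lcu.2RBY.2g056820 was not called, with a log2 fold change of 0.16 (standard error 0.10, edgeR adjusted p = 0.139). Its direction turned with library totals, to -0.24 (edgeR adjusted p = 0.031), so for this gene the 2 tissues could not be ordered. Among the genes without a cultivar count, 11 of 18 were higher in M11 embryos and 2 were lower. Among those with some cultivar counts, 26 of 48 were higher and 5 lower. Of all genes with at least 1 CPM in all M11 libraries, 45.9% were higher and 38.3% lower.

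The identifiers placed 63 of the 66 genes on the 7 chromosomes and left 3 unplaced. Chromosome 2 held 19 of them, or 28.8% of the 66, beside 16.8% of the genes expressed in M11. Chromosome 5 held 13 (19.7%, beside 13.5%), chromosomes 6 and 7 held 8 each (12.1%, beside 12.3% and 13.1%), chromosome 3 held 7 (10.6%, beside 13.9%) and chromosome 4 held 6 (9.09%, beside 15.2%). Chromosome 1 held only Lcu.2RBY.1g027660 and Lcu.2RBY.1g064750, or 3.03%, beside 13.1% of the genes expressed in M11. Per 1000 genes expressed in M11, this is 7.96 on chromosome 2 and 1.07 on chromosome 1. These shares are a description, and neighbouring genes need not be independent of each other. Chromosome 2 also held the most abundant gene and both markers, and its 19 genes summed to 254 CPM in M11 embryos and 127 CPM in M11 seed coats. Of these 19 genes, 13 were higher and 3 lower in M11 embryos, and of the 13 on chromosome 5, 7 were higher and 1 lower. On chromosome 6, 1 of 8 was higher and 1 lower, and 6 were not called. Over all chromosomes, 45.9% of the genes expressed in M11 were higher and 38.3% lower. Such shares were not computed for single chromosomes, so these counts cannot show whether the split by chromosome is a trait of the 66 genes.

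**Figure D4:**
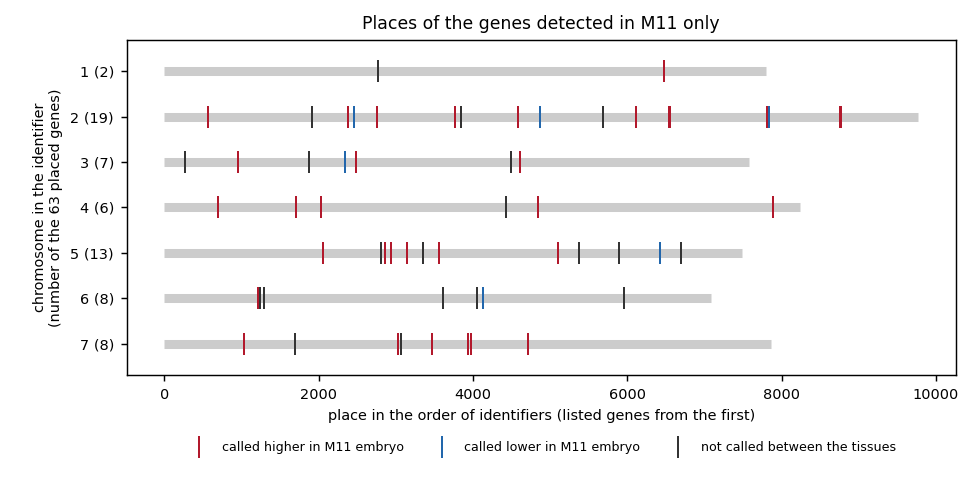
Places of the 63 genes with a chromosome in their identifier, by their order among all listed genes of that chromosome (x axis, not a distance in bases). Each tick is 1 gene, red if called higher in M11 embryo, blue if called lower and black if not called, and the numbers in brackets count the genes per chromosome, with 19 on chromosome 2 and 2 on chromosome 1.

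On the chromosomes most of the 63 genes stood apart from each other. On chromosome 2 they reached from Lcu.2RBY.2g005670 to Lcu.2RBY.2g087760, and of 115 stretches of up to 500 listed genes, 73 held none of the 66 genes, 28 held 1, 8 held 2 and 6 held 3 or 4. The stretch with 4 lay on chromosome 6, from Lcu.2RBY.6g010010 to Lcu.2RBY.6g015000, and held 97 genes expressed in M11. Within 5 listed genes of each other stood 8 of the 63 genes (12.7%), in 4 pairs. In all 4 pairs the genes were direct neighbours in the list. Whether this is more than an even spread of the genes would give was not tested. No group of 3 was found, and within 20 listed genes stood 12 genes in 6 pairs, with Lcu.2RBY.2g087620 and Lcu.2RBY.2g087760 as 1 of the added pairs. Among the unplaced genes, Lcu.2RBY.L020580 and Lcu.2RBY.L020590 have consecutive identifiers, but unplaced identifiers give no order along a chromosome.

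The pair with the highest summed level was Lcu.2RBY.2g023780 and Lcu.2RBY.2g023790, both without a count in the cultivars. Lcu.2RBY.2g023780 had 6.66, 6.83 and 7.10 CPM in M11 embryos and 3.72, 4.09 and 2.99 CPM in M11 seed coats. Lcu.2RBY.2g023790 had 12.1, 13.7 and 13.6 CPM in embryos and 5.42, 5.34 and 4.63 in seed coats. Both genes were higher in embryos, with log2 fold changes of 1.33 and 1.75 (edgeR adjusted p = 4.04e-09 and 4.1e-17). In the pair Lcu.2RBY.5g033550 and Lcu.2RBY.5g033560, the first had 7.26, 7.44 and 6.94 CPM in embryos and 7.45, 8.02 and 7.92 in seed coats and was not called (log2 fold change 0.28, edgeR adjusted p = 0.0787). The second was lower in level, with 3.43, 3.12 and 2.56 CPM in embryos and 2.03, 2.36 and 2.84 in seed coats, and its call as higher in embryos (log2 fold change 0.72, edgeR adjusted p = 0.0091) was lost with library totals (0.32, edgeR adjusted p = 0.245) and with DESeq2, where the log2 fold change was nearly as large (0.68, DESeq2 adjusted p = 0.0511). The third pair was Lcu.2RBY.2g038470, with 2.93, 2.61 and 3.34 CPM in embryos and 2.71, 2.83 and 2.24 in seed coats, and Lcu.2RBY.2g038480, with 2.39, 1.96 and 2.19 in embryos and 2.20, 3.30 and 3.74 in seed coats. The tissues overlapped in both genes of this pair. Lcu.2RBY.2g038470 was called with a log2 fold change of 0.59 (edgeR adjusted p = 0.0292), a call that was lost with library totals (0.19, edgeR adjusted p = 0.484), with DESeq2 at a similar size (0.54, DESeq2 adjusted p = 0.111), without M11 embryo replicate 3 (0.51, edgeR adjusted p = 0.0877) and without M11 seed coat with endosperm replicate 3 (0.49, edgeR adjusted p = 0.116). Lcu.2RBY.2g038480 had a log2 fold change of -0.11 and was not called.

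The fourth pair, Lcu.2RBY.6g012420 and Lcu.2RBY.6g012430, was outside the rule for named genes and is given because only 4 pairs were found. The first had 1.39, 1.16 and 1.41 CPM in embryos and 1.86, 1.57 and 1.64 in seed coats, and the second 3.23, 3.07 and 2.30 in embryos and 4.91, 2.83 and 3.74 in seed coats. Neither was called, with log2 fold changes of 0.04 and -0.01. Both genes were called in the same direction in 1 of the 4 pairs. Whether direct neighbours in the list are parts of 1 transcript or share reads was not tested.

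Of the 126 listed genes directly beside the 63 placed genes, 91 (72.2%) were below 1 CPM in some M11 library, as were 75.1% of all placed genes listed. On each side of the 63 placed genes, the nearest gene with at least 1 CPM in all M11 libraries was looked up, at a median distance of 4 and at most 75 listed genes. Of these 126 flanking places, 8 held another of the 66 genes, which are the 4 pairs. The 66 genes are 0.463% of the genes expressed in M11. A gene with at least 1 CPM in all 18 libraries stood at 85 places (67.5%), beside 82.1% of all genes expressed in M11. The 8 places held by the set could not hold such a gene by the rule, so part of that difference is built in. For 26 of the 63 genes, a gene with at least 1 CPM in all 18 libraries stood on both sides. The 8 genes of the pairs could not be among the 26. The share of all genes expressed in M11 with such neighbours on both sides was not computed. Of the 118 flanking places outside the set, 3 (2.54%) held a gene under 1 pooled CPM in all 4 cultivar groups, beside 0.698% of the other genes expressed in M11, and 16 (13.6%) a gene under 1 pooled CPM in some but not all of them, beside 11.7%. These shares are a description too, and no run of 3 or more genes of the set was found. None of the 66 lay near LcLTP3b (Lcu.2RBY.4g013600), the gene mutated in M11, as the nearest, Lcu.2RBY.4g017110, stood 351 listed genes away. None of them was a vicilin gene, and the nearest to one was Lcu.2RBY.7g030680, which stood 37 listed genes from Lcu.2RBY.7g031050.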

How the data were processed

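For each of the 6 groups a table of unnormalized read counts was deposited, with 1 column per library and 58243 genes. The submitters' processing notes name STAR 2.7.10, while the counting step, the treatment of reads that match several genes and the build are not given here. No genome or annotation was used, and no sequence is shown. The CPM values were computed from these counts with the library total as denominator.

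The genes, lists and tests were chosen with earlier results of these data known. Named are the markers Lcu.2RBY.2g056820 and Lcu.2RBY.2g087620, the 5 most abundant genes and the 2 genes on each side of both limits. Also named are the 4 genes most to either side between the tissues, among those called without overlap of the libraries. Of the 4 pairs of neighbours, which are equally long and close, the 3 with the highest summed level are named. Any other gene was singled out after its values were seen.

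The tissues of M11 were compared with edgeR 4.0.16 in R 4.3.3 (glmQLFit and glmQLFTest, TMM, filterByExpr, 6 libraries), with log2 fold changes as embryo minus seed coat and Benjamini-Hochberg adjustment over 19151 genes. Standard errors are the log2 fold change over the root of the test statistic. The fit was tried on simulated counts of 18744 genes, with 100 changed 2-fold and 100 changed 4-fold. It recovered 94% and 98% of them, and 4% of its calls were false. In the real data 85.8% of all genes tested were called, so the simulation does not test the scaling. The paper does not state a test. Alternatives were DESeq2 1.42.0, other scalings, filters, limits and samples, and each library left out in turn. Replicates of every group differed beyond sampling noise.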

Additional observations from a re-analysis of the deposited data

How the results depend on the processing

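The number of genes detected in M11 only depended on the limits. It was 111 with at least 0.5 CPM in M11, 44 with at least 2 CPM, 44 with at most 0.1 CPM in each single cultivar library, 117 with up to 0.5 pooled CPM in the cultivars, 18 with 0 counts in all cultivar libraries, 164 in embryos alone and 142 in seed coats alone. With TMM-scaled library sizes it was 57, of which 56 were among the 66. Leaving out 1 library gave 61 to 79 genes, with the highest number without M11 seed coat with endosperm replicate 1. For the M11 tissues, a required log2 fold change of 1 left 22 higher and 2 lower genes. The share of all genes at this cut was not computed. Library totals gave 13 lower genes and a median log2 fold change of 0.155. Leaving out 1 library gave 35 to 38 higher and 4 to 7 lower genes and a median of 0.51 to 0.62, and 1 gene was then no longer tested without an embryo library. The numbers with DESeq2 were 32 and 7. With 0 counts in the cultivars 2 genes, and with at least 2 CPM in M11 4 genes, had another of their list within 5 listed genes.

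The replicate block gave 37 higher and 7 lower genes, a median of 0.55 and no changed call among the named genes. Libraries of the same number did not deviate together (correlations of 0.0164, -0.0143 and 0.0319 over 14244 genes), so the numbers were not treated as pairs.

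With library totals the direction turned for 11 of the 66 genes, whose log2 fold change with TMM was at most 0.36, and 2 of them were then called lower. Of the named ones, Lcu.2RBY.2g056820 gave -0.24, Lcu.2RBY.5g033550 -0.11 and Lcu.2RBY.6g012420 -0.36. The last was also -0.0090 with DESeq2's size factors and -0.0097 with DESeq2. Lcu.2RBY.6g012430 gave 0.043 without a filter and 0.012 with all 18 libraries. Leaving out 1 library gave -0.012 to 0.15 for Lcu.2RBY.6g012420, -0.19 to 0.19 for Lcu.2RBY.6g012430 and -0.30 to 0.052 for Lcu.2RBY.2g038480. Of 272 values for 21 named genes, 252 kept direction and call. Seed coat depth limits the lowest genes, at 6 counts per library.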

Other observations

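The rule asks for RNA in both M11 tissues. Applied to embryos alone it gave 164 genes, the 66 and 98 others. Of these others, 54 fell short of 1 CPM in an M11 seed coat library, 26 passed 0.1 CPM in cultivar seed coats and 18 did both, and 5 had 0 counts in M11 seed coats. Applied to seed coat with endosperm alone it gave 142 genes. Of the 76 others, 53 fell short in an M11 embryo library, 13 passed the cultivar limit in embryos and 10 did both, and 9 had 0 counts in M11 embryos.

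The reverse pattern was also present. At least 1 CPM in all 12 cultivar libraries, and at most 0.1 pooled CPM in both M11 groups, was found for 99 genes. This rule asks for a level in 12 libraries and the rule for the 66 genes for one in 6, so the 2 numbers are not directly comparable.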
